A study of Mus musculus with 3 samples.

Results

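Imprinted genes are transcribed wholly or mainly from 1 parental copy, in some cases only in certain tissues, according to whether that copy came from the mother or the father. The choice is held by differentially methylated control regions, which carry 5-methylcytosine (5mC) on 1 parental copy, and most imprinted genes lie in clusters around such a region. 5-hydroxymethylcytosine (5hmC) is made from 5mC by the TET enzymes and is abundant in neurons, where it is found largely in the bodies of transcribed genes. The genes described here are 52 known imprinted genes of the mouse in 22 clusters or single loci, chosen by symbol. Their bodies were examined and not the control regions as such, although the region found in H19 reached into one.

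The samples were 3 hydroxymethylated DNA immunoprecipitation (hMeDIP) reactions, in which an antibody to 5hmC enriches sheared fragments that are then read directly on a nanopore. All were of untreated cerebellum DNA of 1 female C57Bl6Cr mouse aged 8 weeks, so that the spread between replicates is technical and not between animals. The antibody was whole serum in replicate 1 and an IgG-purified preparation in the other 2, so that the antibody cannot be told apart from the replicate or its depth. Replicates 1 to 3 had 497, 8546 and 5166 peaks, and the base-call counts at CpG sites summed to 69910, 104238 and 75624 calls. Expression was not measured, and neither parental alleles nor cell types can be told apart in these calls. The peaks of the 3 replicates merged into 13342 regions, and a region was assigned to a gene when its midpoint lay in the gene body or in the 1 kb upstream of it. By this rule 15 regions fell in imprinted genes, and they held 210 CpG calls.

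Only 7 of the 52 imprinted genes held a region, namely Trappc9, Ppp1r9a, Igf2r, Gnas, H19, Meg3 and Usp29. Trappc9 held 6 of the 15 regions, Ppp1r9a 3 and Igf2r 2, and the other 4 genes held 1 each. Without replicate 2, which gave 10 of the peaks, 4 genes and 6 regions remained, as H19, Igf2r and Usp29 lost theirs. All 15 midpoints lay in the gene body itself and none in the upstream 1 kb, with 12 in introns and 3 in exons of the canonical transcript (GENCODE M39). Each of the 7 genes belongs to a different cluster, so that no cluster had 2 members with a region. The largest clusters without a region were Snrpn-Ube3a with 8 members and Kcnq1ot1 with 6. At the rate of other genes of like length and the same coding or non-coding kind, 1.79 and 0.74 members would hold one, with 5.62 and 1.07 regions. The figure of 1.79 members was the highest of any cluster.

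Long genes hold more regions, and the count was therefore set beside other genes of like length. Of the other genes, taken as those that overlap no imprinted gene of the list, 8.78% held at least 1 region, against 13.5% of the imprinted genes. The percentage in other genes was higher in each longer class, from 2.18% under 5 kb to 8.93% at 5 to 20 kb, 16% at 20 to 50 kb, 24.5% at 50 to 100 kb, 37.7% at 100 to 200 kb and 57.1% at 200 kb or more. In the same order, the imprinted genes with a region were 1 of 10, 0 of 8, 1 of 11, 2 of 12, 0 of 7 and 3 of 4. At the rates of other genes of the same length class, 10.6 imprinted genes and 30.9 regions would have been counted, against 7 and 15. With protein-coding genes alone as the comparison, these figures were 13.4 genes and 40.4 regions. Without replicate 2 the like-length rates gave 6.35 genes and 12.9 regions, against 4 and 6, and with peaks of a -log10 q-value of at least 2 they gave 8.62 genes and 20.9 regions, against 5 and 12. Both counts were below the rate of like-length genes, but they are descriptions with no test, and several members overlap each other and so share the same DNA.

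**Figure D1:**
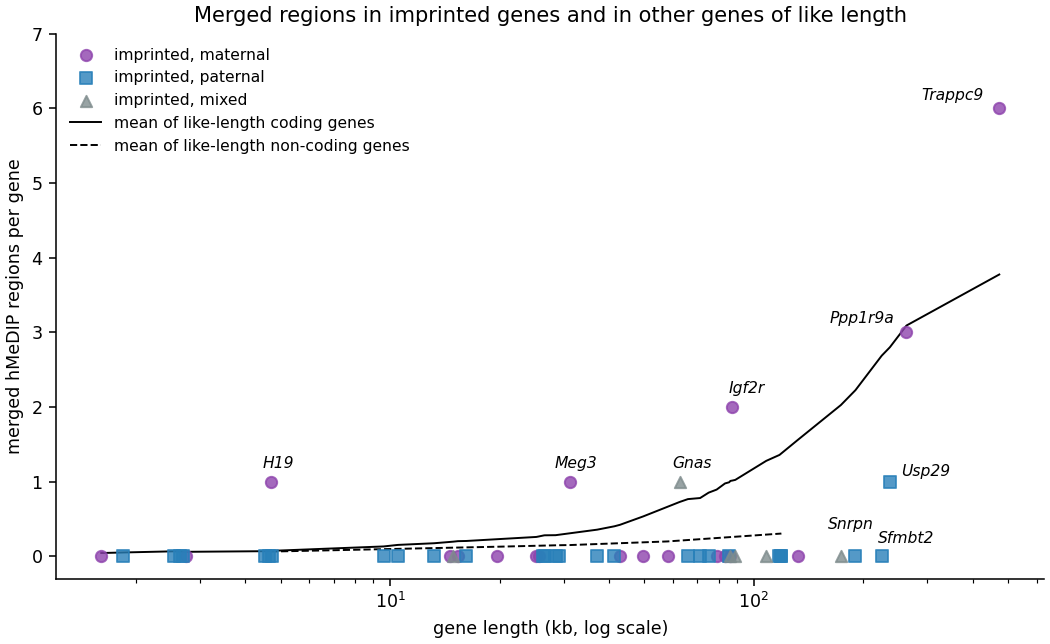
Merged regions per gene against gene length in kb on a log axis, for the 52 imprinted genes (1 point each, shape and colour by expressed allele); the lines join, for the imprinted genes of each kind, the mean count of other genes with a length ratio of at least 0.8 either way. Trappc9, with 6 regions, lies above the line of coding genes and Ppp1r9a on it, whereas most imprinted genes between 50 and 200 kb lie at 0.

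The lower count was also seen as density, but not in every replicate. In replicate 1 the imprinted genes held 2 peaks, which is 0.563 peaks per Mb against 0.286 per Mb in like-length genes. In replicate 2 they held 10 peaks, or 2.81 per Mb against 5.06 per Mb. In replicate 3 they held 4 peaks, or 1.13 per Mb against 3.08 per Mb. The density was thus lower in replicates 2 and 3 and higher in replicate 1, which rests on 2 peaks, both in Trappc9. Without Trappc9 and Peg13, left out after the values were seen, it was 0 against 0.294 peaks per Mb in replicate 1. The density was then lower in all 3 replicates, with a mean difference of -1.86 peaks per Mb ± 1.45 (SD, n = 3, exact sign-flip permutation test, p = 0.25). This test decides nothing, since leaving out the gene with both peaks fixed the sign of replicate 1. Over all the imprinted genes the mean difference was -1.31 peaks per Mb ± 1.38 (SD, n = 3). This did not exceed the spread between replicates (two-sided exact sign-flip permutation test, p = 0.5, adjusted p = 0.833 over 5 tests). The difference was -0.676 peaks per Mb with peaks of a -log10 q-value of at least 2 and -2.15 against protein-coding genes alone. Without replicate 1, 2 or 3 in turn it was -2.1, -0.837 and -0.987 peaks per Mb. With 3 replicates this test cannot give a p below 0.25.

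Trappc9 encodes a subunit of a vesicle tethering complex and is expressed mainly from the maternal allele in brain. The gene spans 473 kb of the reverse strand (GRCm39 chr15:72461467-72934559), with the gene of the paternally expressed non-coding RNA Peg13 inside it (chr15:72677449-72682173). Other coding genes of like length, with a length ratio of at least 0.8 either way, held 3.77 regions on average and a median of 1, and 25.2% of these 238 genes held 6 or more. The 6 regions of Trappc9 were therefore more than the mean, but within the range of like-length genes. All lay in the part of the gene downstream of Peg13, between 55.1% and 87.6% of the gene length from its start, 2 of them in intron 16 and 4 in intron 20. The region nearest to Peg13 had its midpoint 3.39 kb from the 3′ end of that gene, and it held 4 calls, all in replicate 2.

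**Figure D2:**
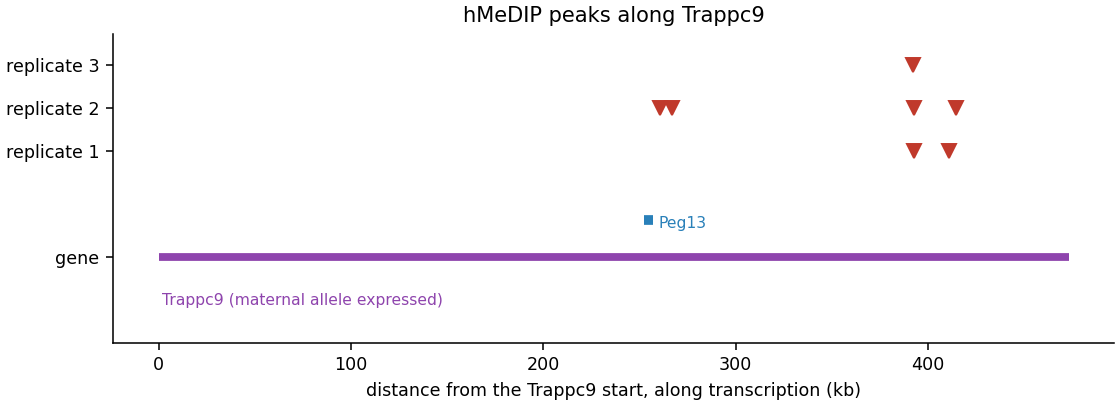
Peaks along Trappc9 by replicate (triangles, at the midpoint of the merged region), with the distance from the gene start in kb on the x axis; the bars show Trappc9 and Peg13 to scale in length. The 6 regions lie between 260.5 and 414.33 kb from the start, all downstream of Peg13, and peaks of all 3 replicates meet between 392.1 and 392.93 kb.

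The only imprinted-gene region with peaks in more than 1 replicate lay in intron 20 of Trappc9 (chr15:72540982-72542275), with a fold enrichment of 3.78 in replicate 1 and 4.41 in replicate 2. This was 1 of 15 regions, beside 5.97% of the 12059 regions in other genes. A separate peak of replicate 3, with a fold enrichment of 3.87, lay 5 bp away on the side of the gene start (chr15:72542281-72542636), so that the 2 regions span 1655 bp with a peak of every replicate. The middle 300 bases of the first, the imprinted-gene region with the most calls, are shown with CpG in capitals, from the forward strand of GRCm39 (chr15:72541479-72541778).
Trappc9: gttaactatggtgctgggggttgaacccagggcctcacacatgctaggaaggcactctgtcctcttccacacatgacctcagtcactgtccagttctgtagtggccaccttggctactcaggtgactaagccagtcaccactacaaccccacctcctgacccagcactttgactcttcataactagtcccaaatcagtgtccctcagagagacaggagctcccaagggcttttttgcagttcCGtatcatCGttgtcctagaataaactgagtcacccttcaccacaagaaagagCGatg
This window held 3 CpG sites and 9 calls. Replicate 1 gave 3 calls of 5hmC and 3 of 5mC, replicate 3 gave 1 call of each state, and replicate 2 gave none.

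Over the whole of this Trappc9 region, replicate 1 had 6 of 16 calls as 5hmC (37.5%, exact 95% binomial interval 15.2 to 64.6), replicate 2 had 4 of 18 (22.2%, 6.41 to 47.6) and replicate 3 had 5 of 14 (35.7%, 12.8 to 64.9). The intervals overlapped, so that the replicates were not distinguishable at this depth. The calls were not evenly spread along the region. At its first 5 CpG sites, between bases 113 and 302, all 14 calls were unmodified C, of which the replicates gave 2, 7 and 5 in order. A count of 0 in 14 calls allows a 5hmC share of up to 21.4%. At the other 14 sites, from base 448 on, 15 of 34 calls were 5hmC and 13 were 5mC, and the 5hmC share was 42.9%, 36.4% and 55.6% in replicates 1 to 3. This division was chosen after the values were seen and is a description only.

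**Figure D3:**
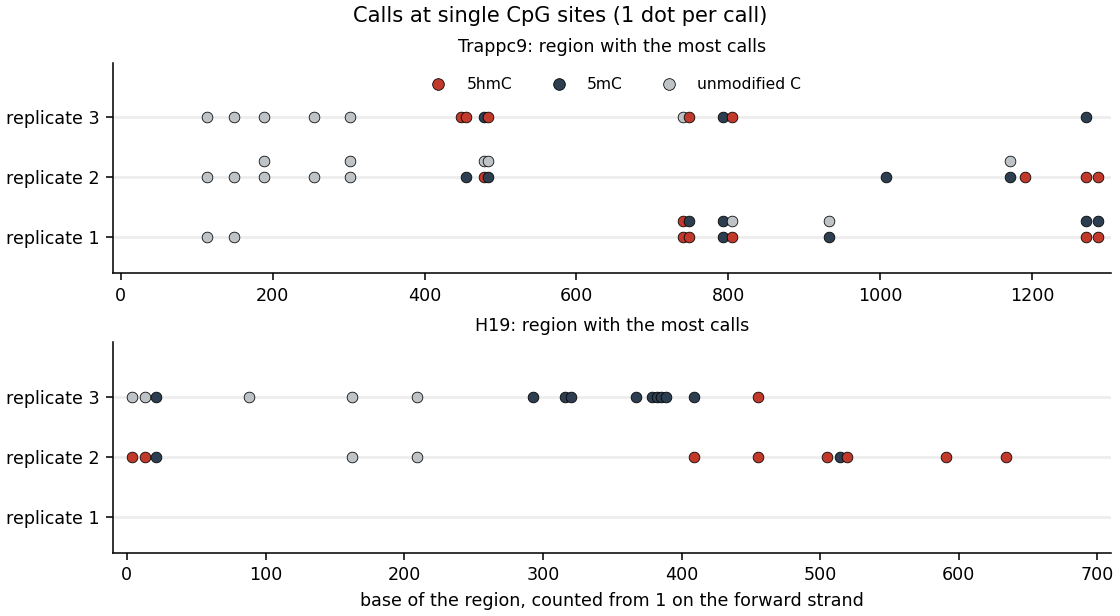
Calls at single CpG sites of the Trappc9 region with peaks in 2 replicates and of the H19 region, with the base of the region on the x axis and 1 dot per call, stacked where a site had several. In Trappc9 the 14 calls before base 448 are all unmodified in all 3 replicates, and in H19 replicates 2 and 3 differ.

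The other Trappc9 regions differed among themselves. In the neighbouring region of replicate 3 the 5hmC share was 5 of 13 calls in replicate 1 and 5 of 7 in replicate 3, and replicate 2 had no calls there. The region with the highest fold enrichment of the imprinted genes, 5.74 in replicate 2, lay 414.33 kb from the start (chr15:72520011-72520444). It held no 5hmC among 9 calls in replicate 2, in which it was a peak, and 3 of 12 in replicate 1, in which it was not. A region 410.71 kb from the start, with a fold enrichment of 5.64 in replicate 1, held 4 of 8 calls as 5hmC there and 1 of 3 in replicate 3. Over the whole gene, replicate 1 gave 49 calls with 36.7% 5hmC, replicate 2 gave 31 with 16.1%, and replicate 3 gave 24 with 45.8%. Trappc9 held 49.5% of all calls in imprinted genes.

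Ppp1r9a encodes neurabin, an actin-binding scaffold of dendritic spines, and lies in the Peg10 cluster. The gene spans 263 kb (chr6:4902745-5165667) and held 3 regions, beside a mean of 3.09 in 446 coding genes of like length. The first lay in coding exon 2, 3.59 kb from the gene start (chr6:4906187-4906490), with 2 of 10 calls as 5hmC in replicate 2 and 1 of 9 in replicate 3. 5mC was the most frequent state in both, with 8 and 5 calls. The other 2 lay in intron 2 less than 1 kb apart (chr6:5005895-5006198 and chr6:5006800-5007101), with 2 of 8 calls as 5hmC in replicate 2 in the former and 3 of 4 in replicate 3 in the latter. No call of replicate 1 fell in this gene. The remaining Peg10 cluster members Peg10, Sgce, Asb4 and Calcr held no region.

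Igf2r encodes the receptor that clears insulin-like growth factor 2, and is expressed from the maternal allele in most tissues but from both in neurons. The gene spans 87.3 kb of the reverse strand (chr17:12901293-12988614) and held 2 regions, whereas 1499 coding genes of like length held 1.01 on average and 20.3% of them held 2 or more. Both lay towards the 3′ end, away from the start of the antisense RNA Airn. The first was wholly in the untranslated part of the last exon, exon 48 (chr17:12901793-12902392). It was called in replicate 2 with a fold enrichment of 2.84, the lowest among the imprinted genes, and there 10 of 11 calls were 5mC, 1 was unmodified and none was 5hmC, which allows a 5hmC share of up to 27.3%. In replicate 1, in which it was not a peak, 2 of 7 calls were 5hmC and 4 were 5mC. The second, in intron 37 (chr17:12912519-12912822), held 2 of 5 calls as 5hmC in replicate 2. Over the gene 5mC made up 73.9% of 23 calls, the highest share among the imprinted genes with calls. Of these 17 calls of 5mC, 14 lay in the exon 48 region, which was not kept when a -log10 q-value of at least 2 was asked for.

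H19 is a maternally expressed non-coding RNA and the counterpart of Igf2, its paternally expressed neighbour. It spans 4.7 kb of the reverse strand (chr7:142129262-142133957) and held 1 region (chr7:142130231-142130930), whereas 94.5% of 3892 non-coding genes of like length held none. The midpoint lay in exon 2 of 6 and also within the annotated gene Gm33148, and 537 of the 700 bases were exonic. Part of the region and of the window printed here lay within the control region of H19 as the study lists it, so that gene body and control region cannot be told apart here. The peak was called in replicate 2 with a fold enrichment of 3.53, and it was lost when only peaks with a -log10 q-value of at least 2 were kept, as were that of Gnas and the exon 48 region of Igf2r. Its middle 300 bases (chr7:142130431-142130730, forward strand of GRCm39, CpG in capitals) are shown because it had the most calls after that of Trappc9 and replicates 2 and 3 differed in it.
H19: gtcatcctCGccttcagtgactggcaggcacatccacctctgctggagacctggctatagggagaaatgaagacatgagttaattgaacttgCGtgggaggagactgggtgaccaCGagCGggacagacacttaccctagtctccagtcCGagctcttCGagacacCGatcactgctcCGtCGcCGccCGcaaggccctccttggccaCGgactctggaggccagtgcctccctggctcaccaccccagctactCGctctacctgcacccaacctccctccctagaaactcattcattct
The window held 13 CpG sites, against 3 in the window of Trappc9. Its 14 calls were 2 of 5hmC and 1 of unmodified C in replicate 2, and 1 of 5hmC, 9 of 5mC and 1 of unmodified C in replicate 3.

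Over the whole H19 region, replicate 2 gave 8 of 12 calls as 5hmC (66.7%, exact 95% interval 34.9 to 90.1) and replicate 3 gave 1 of 16 (6.25%, 0.158 to 30.2), whereas 5mC made up 2 and 10 calls. Replicate 1 had no call there. The intervals did not overlap, but they cover counting error only. No site had more than 1 call in either replicate, so that the calls of a replicate may come from as few as 1 molecule, and calls along a molecule are not independent. At the 7 sites called in both, 4 had the same call, 1 was 5hmC in replicate 2 and 5mC in replicate 3, and 2 were 5hmC in replicate 2 and unmodified in replicate 3.

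The 3 other genes with a region held few calls. Gnas, which encodes the stimulatory G protein alpha subunit and has promoters of differing parental expression, held a region of 1209 bp in replicate 3 (chr2:174178308-174179516) with its midpoint in intron 3 and 45 coding bases. Its 18 calls, 1 at each of 18 CpG sites, were 5 of 5hmC, 4 of 5mC and 9 of unmodified C. Usp29, a paternally expressed gene of the Peg3 cluster, held 1 region in intron 1 (chr7:6739221-6739549), with 2 of 6 calls as 5hmC. Other coding genes of its length, 237 kb, held 2.8 regions on average and 59.1% of them held at least 1. Meg3, a maternally expressed non-coding RNA, held 1 region of replicate 3 in intron 3 (chr12:109510563-109510864) with no CpG call at all. Together with a region of Trappc9, this left 2 of the 15 regions without a call. The authors left masked repeats out of the calls, and whether these 2 regions lie in repeats was not tested.

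**Figure D4:**
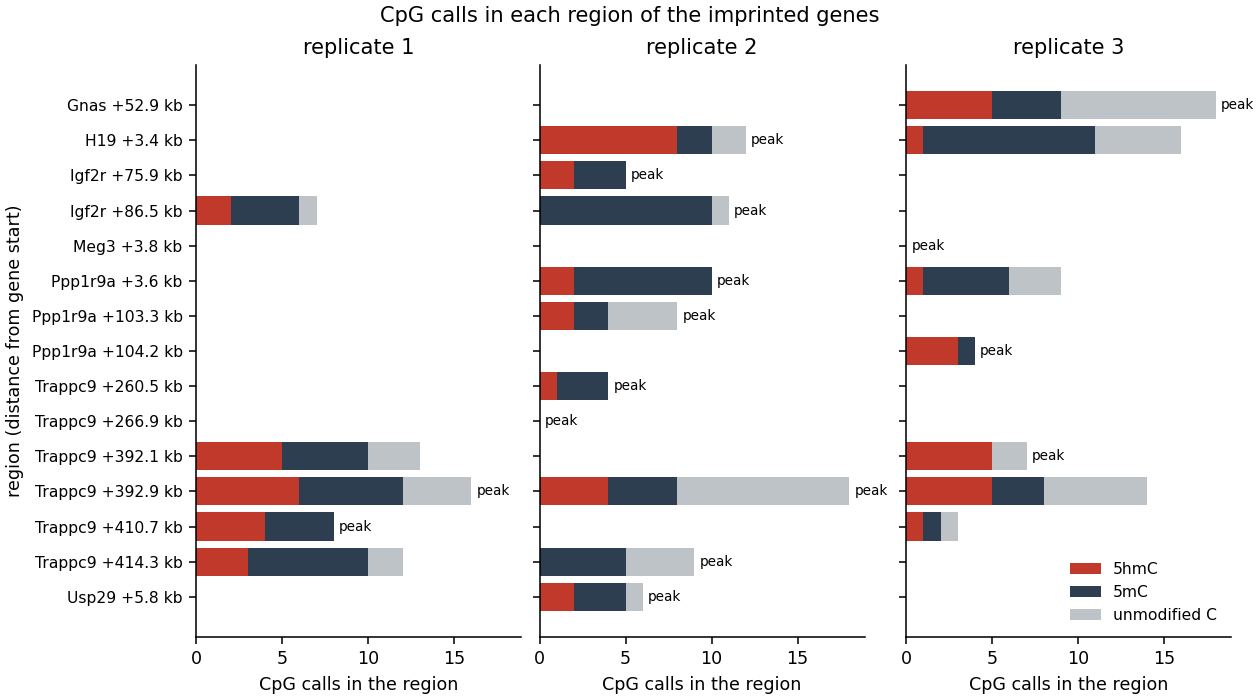
CpG calls in each of the 15 regions by replicate, stacked as 5hmC, 5mC and unmodified C; the rows give the gene and the distance of the region from its start, and "peak" marks the replicates in which the region was called. No region has over 18 calls in a replicate, and 14 of 15 were called as a peak in 1 replicate only.

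By expressed allele, 13 of the 15 regions lay in maternally expressed genes, of which 5 of 19 held a region. Of the 27 genes classed as paternally expressed only Usp29 did, and of the 6 classed as mixed only Gnas. The summed lengths of the maternal and paternal genes were similar, at 1495 and 1567 kb. At the rate of other genes of like length and the same coding or non-coding kind, 4.82 maternally and 5.9 paternally expressed genes would hold a region, with 14.8 and 15.9 regions. The expressed allele of each gene was taken from general knowledge and was not checked for cerebellum, so that these classes may not hold there for every gene. Igf2r was counted as maternal. Counted as mixed, as in neurons, it left 11 regions in 4 of 18 maternally expressed genes, beside 4.44 genes and 13.8 regions at the like-length rate. The maternal count was thus near that of like-length genes and the paternal count below it. The difference between the alleles was not tested, and Trappc9 alone gave 6 of the 13 maternal regions. The 5hmC share could be set side by side in replicate 2 only, at 2 of 6 calls in paternally and 19 of 77 calls (24.7%) in maternally expressed genes, or 17 of 61 (27.9%) with Igf2r counted as mixed, since the former had no call in the other replicates.

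The other 45 genes held no region. The longest were Sfmbt2, a polycomb group gene of 225 kb, and Snrpn, a splicing factor gene of 190 kb in the Snrpn-Ube3a cluster. Among coding genes of their length, 41.5% and 44.7% likewise held none. The lipid flippase gene Atp10a, the coatomer gene Copg2, the long non-coding RNAs Airn and Kcnq1ot1, the guanine nucleotide exchange factor gene Rasgrf1 and the adaptor gene Grb10 were also without a region at lengths between 108 and 174 kb. For the 2 non-coding RNAs this was the common state, since 82.3% of non-coding genes of either length held none, whereas for Atp10a the percentage was 47.5%. The remaining genes without a region between 50 and 100 kb were the ubiquitin ligase gene Ube3a, the zinc finger gene Plagl1, Rian, Slc38a4, Sgce, Calcr, Ddc, Commd1, Inpp5f and Herc3. Those under 50 kb included Peg3, Zim1, Igf2, Dlk1, Rtl1, Mest, Nnat, Blcap, Cdkn1c, Phlda2, Ndn, Magel2, Mkrn3 and Peg12. The others were Snurf, Slc22a18, Cd81, Tspan32, Peg10, Asb4, Nap1l5, Nespas, Dcn, Impact, Zdbf2, Peg13 and Mirg. For the genes under 50 kb, between 73.5% (for Asb4) and 95.9% (for Phlda2) of genes of like length and kind held none. A gene without a region is one without a peak at this depth and not one shown to lack 5hmC, since the calls analysed lie in peaks only.

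The calls within the regions were then compared with those in regions of like-length genes. In replicate 1, 5hmC made up 20 of 56 calls in imprinted genes (35.7%, exact 95% interval 23.4 to 49.6) and 34.1% in like-length genes. Replicate 2 had 21 of 83 calls as 5hmC (25.3%, 16.4 to 36) against 34.1%, and replicate 3 had 21 of 71 (29.6%, 19.3 to 41.6) against 33.2%. The share in imprinted genes was thus slightly higher in replicate 1 and lower in replicates 2 and 3, and each interval held the value of like-length genes. The mean difference was -3.62 percentage points ± 5.18 (SD, n = 3), within the spread between replicates (two-sided exact sign-flip permutation test, p = 0.5, adjusted p = 0.833). The differences of replicates 1 to 3 were 1.58, -8.78 and -3.66 points. Of the 56 calls of replicate 1, 49 were in Trappc9. Without Trappc9 and Peg13, left out after the values were seen, the share of replicate 1 was 28.6% of 7 calls against 31%. All 3 replicates were then lower, with a mean difference of -5.26 points ± 4.85 (SD, n = 3, exact sign-flip permutation test, p = 0.25, the smallest it can give). This test decides nothing, since leaving out the gene with 49 of the 56 calls turned the sign of replicate 1. The mean difference turned to 8.97 points when replicate 2 was left out together with the regions called in it alone, which left 6 of the 15 regions, to 5.62 points with sites inside the replicate's own peaks only, and to 19 points with sites of at least 2 calls. It kept its sign but shrank to -0.518 points when the 13 regions with 20 or more calls at a CpG, all outside the imprinted genes, were kept, and to -1.73 points against other genes of any length.

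**Figure D5:**
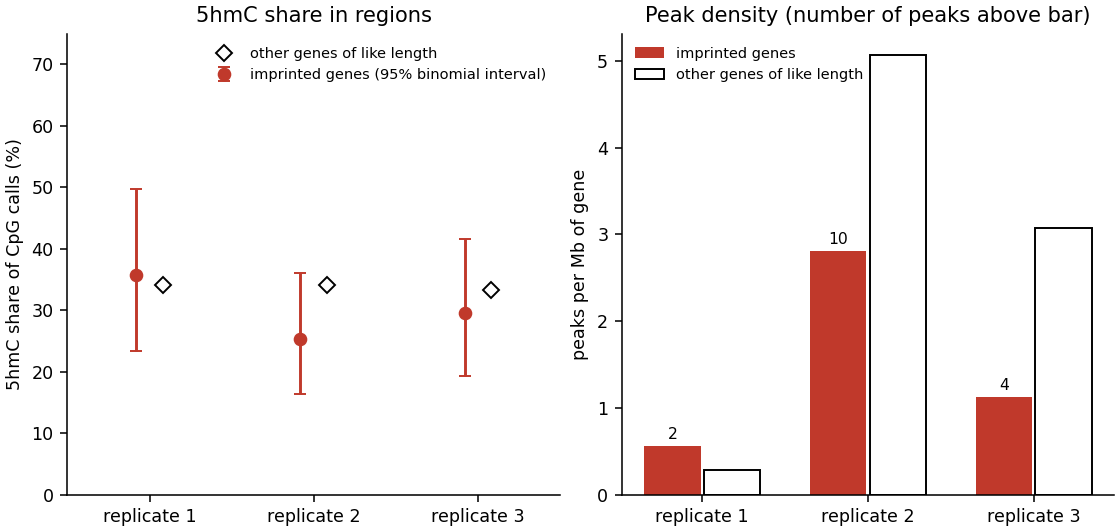
Left, the 5hmC share of CpG calls in percent by replicate for regions of imprinted genes (circles, exact 95% binomial intervals) and of other genes of like length (diamonds); right, peaks per Mb of gene by replicate, with the number of peaks in imprinted genes above the bars. The intervals of all 3 replicates include the diamonds, and the density is lower in imprinted genes in replicates 2 and 3 but not in replicate 1.

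Over all the imprinted genes, the shares of the other states did not differ beyond the replicate spread either. 5mC made up 46.4%, 48.2% and 33.8% of the calls in imprinted genes in replicates 1 to 3, against 39.6%, 39.2% and 39.2% in like-length genes. The mean difference was 3.47 points ± 7.74 (SD, n = 3, exact sign-flip permutation test, p = 0.5, adjusted p = 0.833). Without Trappc9 and Peg13 it was 12.2 points ± 7.66 (SD, n = 3, exact sign-flip permutation test, p = 0.25). That alternative was chosen after the values were seen, so that this test decides nothing, and 5mC was then higher in all 3 replicates. Its shares were 57.1% of 7 calls, 53.8% of 52 and 42.6% of 47, against 39%, 38.8% and 39% in like-length genes. All 4 of its calls in replicate 1 and 10 of 28 in replicate 2 lay in the exon 48 region of Igf2r. That region was not a peak in replicate 1. In replicate 3, 10 of 20 lay in H19. Unmodified C made up 17.9%, 26.5% and 36.6%, against 26.2%, 26.7% and 27.6%, with a mean difference of 0.147 points ± 8.71 (SD, n = 3, exact sign-flip permutation test, p = 1, adjusted p = 1). Neither direction was stable. The 5mC difference turned to -7.88 points without replicate 2, -3.28 with sites inside the replicate's own peaks and -11.7 with sites of at least 2 calls, and that in unmodified C to -5.66 without replicate 3, -2.34 and -7.34. The imprinted genes varied between replicates far more than the like-length genes, whose 5hmC share had an SD of 0.504 points against 5.23 points. The former rest on 56 to 83 calls per replicate and the regions of all other genes held 32504 to 82295.

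Single sites could be compared between replicates where both had exactly 1 call. In the regions of imprinted genes, 22 of 39 such pairs (56.4%) had the same state, beside 45.2% of 22598 pairs in other genes. When 5hmC and 5mC were counted together as modified, 79.5% and 70% were alike. These are descriptions, as neighbouring sites share molecules.

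The median fold enrichment of peaks in imprinted genes was 4.71, 3.83 and 3.87 in replicates 1 to 3, against 4.72, 3.83 and 3.87 in other genes, with a mean difference of -0.00474 ± 0.00829 (SD, n = 3, exact sign-flip permutation test, p = 1, adjusted p = 1). Fold enrichments took few values at this depth. The most frequent one in each list, 4.72, 3.83 and 3.87, was held by 18.1%, 26.5% and 28.3% of its peaks and equalled the median of the list at this rounding, so that the medians cannot show small differences. Without Trappc9 and Peg13 the mean difference was -0.0323 over replicates 2 and 3, since replicate 1 then had no peak. The regions of imprinted genes had a median width of 329 bp, against 304 bp in other genes. Their CpG density ranged from 0.912 per 100 bp in Usp29 to 3.62 in Ppp1r9a, with a median of 1.99, and lay near the median of 1.79 of the other genic regions (quartiles 1.32 and 2.46). Of the 52 gene bodies, 37 had more CpG per kb than the median gene of their length and kind.

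Further imprinted genes, and genes linked to the methylation of imprints, were examined as lists. Of 44 further genes with reported imprinting, 12 held a region, with 33 regions in all, whereas the like-length rate would give 9.11 genes and 26.1 regions, or 10.9 and 29.5 with genes of the same coding or non-coding kind. Ago2, an Argonaute gene adjacent to Trappc9 that is expressed mainly from the maternal allele in brain, held 8 regions, beside a mean of 1.03 in coding genes of like length, of which 2.21% held as many. Each of its regions was a peak of 1 replicate, and the 5hmC shares in replicates 1 to 3 were 25% of 24 calls, 40.8% of 71 and 37.5% of 24. The adaptor gene Gab1 held 5 regions, H13 and Slc38a1 held 3 each, and Bcl2l1, Jade1, Ampd3, Nctc1, Smoc1 and B830012L14Rik held 2 each, while Ano1 and Slc22a2 held 1 each. In Ampd3 only 5 of 104 calls were 5hmC, but the replicates differed, with 3 of 16 in replicate 1 and 2 of 88 in replicate 2. None of the 33 regions was called in more than 1 replicate.

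Of 19 genes linked to imprint methylation, 5 held a region, beside 3.88 at the like-length rate and 4.85 with genes of the same kind. The de novo methyltransferase gene Dnmt3a held 5 regions and 19 of 48 calls as 5hmC, and 8.84% of coding genes of like length held as many regions. Tet3 held 3 regions, with 10 of 33 calls as 5hmC, of which replicate 1 gave 1 of 8 and replicate 2 gave 9 of 25. Replicate 3 had no call there. Tet1, Ctcf and Trim28 held 1 region each.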

How the data were processed

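The authors base-called the hMeDIP reads with Dorado, aligned them to mm39 (GRCm39) with minimap2, and called narrow peaks with MACS2 separately in each replicate, with untreated DNA from that sample as input. The deposited peak lists give a fold enrichment (a ratio to the local background) and −log10 p- and q-values, besides a display score that was not used here. The deposited base-call counts of 5hmC, 5mC and unmodified C, with their percent values, were made by the authors with modkit at CpG sites in peaks, with masked repeats left out. All sites lie on the forward strand.

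Peaks overlapping by at least 1 bp were merged, and 13 regions in which a CpG had 20 or more calls were left out, none of them in an imprinted gene. Genes were those of GENCODE M39. Of the 52 symbols 51 matched, and Nespas was matched through a RefSeq synonym to Gnasas1. Shares in other genes were computed by length class (edges at 5, 20, 50, 100 and 200 kb), weighted by the calls of the imprinted genes in each class, and densities by their length. Differences were tested over the 3 replicates with two-sided exact sign-flip tests, with Benjamini-Hochberg adjustment over 5 tests. Intervals are exact binomial ones at 95% and, like the limit of 3 counts used for shares of 0, cover counting error only. At most 3 calls fell on a CpG in an imprinted gene, which limits every share here. The share by expressed allele could not be tested, as paternally expressed genes had calls in 1 replicate only.

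The imprinted genes and the lists were chosen with earlier results of these data known. Values by replicate were given for imprinted genes with at least 2 regions, a region with peaks in 2 replicates or 20 calls, and for the other genes with a region the calls of each state were summed over replicates. Sequences were read for the 2 regions with the most calls. Alternatives changed the sites, the peaks, the assignment to genes, the genes compared and the replicates used. Computations ran in scipy 1.17.1, pandas 2.3.3 and pysam 0.24.0 under Python 3.11.15, and the functions were tested on simulated data.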

Additional observations from a re-analysis of the deposited data

How the results depend on the processing

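Of 88 values recomputed under the alternatives, 67 kept their direction or stayed within 1.5 times the count. With 3 replicates or fewer no difference could pass a threshold, so the p-values say nothing of stability. With sites inside the replicate's own peaks only, the differences from like-length genes were 5.62 points for 5hmC, -3.28 for 5mC and -2.34 for unmodified C, and with sites of at least 2 calls 19, -11.7 and -7.34 points, all opposite in sign to those reported. With at least 5 calls no site remained in imprinted genes. When the regions of 20 or more calls were kept, the 5hmC difference was -0.518 and the 5mC difference -1.31 points, and with peaks of -log10 q of at least 2 they were -2.19 and -0.343. The difference in unmodified C was -1.29 points against other genes of any length. Without single replicates, the imprinted genes with a region numbered 4 to 7, their regions 6 to 14, and the regions with peaks in 2 or more replicates 0 to 1. The low counts of genes and regions came without replicate 2, when H19, Igf2r and Usp29 lost their regions. The region shared by replicates 1 and 2 stays without either, but by construction it then has a peak in 1 replicate only. Likewise the difference in peaks per Mb ranged from -2.1 to -0.837, in 5hmC from -6.68 to 8.97 points, in 5mC from -7.88 to 9.47, in unmodified C from -5.66 to 4.64 and in median fold enrichment from -0.00715 to 4.25e-05. The share of 5hmC in paternally minus maternally expressed genes, in replicate 2, was 8.66 points as reported and 8.66 to 9.65 points without replicate 1 or 3, but 18.6 with sites of at least 2 calls, 13 with peaks of -log10 q of at least 2 and 2.9 without Trappc9 and Peg13, and it had no value without replicate 2. Leaving out Trappc9 and Peg13, an alternative chosen after the values were seen, left 9 regions in 6 genes, 0 of them in 2 or more replicates, a 5hmC difference of -5.26 points, a 5mC difference of 12.2 points and one of -6.98 points in unmodified C. The cause of these changes was not tested. No pairing of samples between groups was possible, because the samples form 1 group and no groups share replicate numbers. The differences between gene sets were taken within each replicate, so that their tests are paired by replicate.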
